A study of Mus musculus with 6 samples.

Results

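The Zfp genes of the mouse form a large group of zinc finger transcription factors, and 264 of them were measured here at a mean of at least 2 CPM in control cells (CPM, the count of a gene scaled to the library total). The members were selected on their level in the control siRNA libraries among protein-coding genes whose symbol is Zfp followed only by digits, with Zfp36 left out. There were 364 such genes, and 100 lay below that level. All 264 were among the 14269 genes tested, out of 55401 in the count tables. The control libraries thus enter both the choice and every comparison below.

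A C2H2 zinc finger is a short fold held by a zinc ion between a pair of cysteines and a pair of histidines, and a row of such fingers reads DNA bases in sequence. Many of these proteins carry a KRAB domain, which recruits TRIM28 (KAP1), the histone H3 lysine 9 methyltransferase SETDB1, HP1 proteins and DNA methylation to silence retroelements and other targets. Others carry a SCAN domain, which pairs proteins with each other, and some have left transcription for work in RNA processing or on the ribosome.

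The cells were RAW264.7, a macrophage line that arose in a tumour induced in mice by Abelson murine leukaemia virus, labelled wild type. The Nop16 siRNA group and the control siRNA group had 3 libraries each of poly(A) RNA, made to study the function of NOP16, which resides in the nucleolus and helps to assemble the large ribosomal subunit. A single treatment text, with Nop16 siRNA at 20 nM over 3 days, is given for all samples, and what the controls were transfected with is not stated there. The labels do not describe the replicates as separate cultures. The p-values below therefore cover only the spread among these libraries, which could be technical.

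Total counts were 15601477 to 18635089 in the Nop16 siRNA libraries and 19778237 to 23061922 in the control siRNA libraries. Nop16 itself had 3.91, 4.12 and 4.51 CPM in the Nop16 siRNA libraries, against 17.8, 18.9 and 20.3 CPM in the control siRNA libraries, a log2 fold change of -2.16 ± 0.12 (SE, n = 3 each, edgeR adjusted p = 2.94e-23). Of the 8 macrophage markers examined, 5 rose (62.5%) and 1 fell (12.5%), beside 23% and 22.4% of all genes tested. The markers are abundant, with a median mean of 904 CPM, against 23.1 CPM for all genes tested. Their summed level was 8474 to 8837 CPM in the Nop16 siRNA libraries, against 5589 to 5883 CPM in the control siRNA libraries. Lyz2 alone averaged 2908 CPM in Nop16 siRNA cells and 1151 CPM in control siRNA cells. Ptprc fell, and Adgre1 and Spi1 neither rose nor fell by the same test. Of 10 markers of other cell types, 6 had no count in any library and the highest reached 0.897 CPM. What part these macrophage transcripts have in the levels of the Zfp genes was not tested. In bulk RNA, fewer cells that express a gene and less of its RNA per cell cannot be told apart.

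Most Zfp genes did not pass the test for a difference between Nop16 siRNA and control siRNA cells. At an edgeR adjusted p below 0.05 over all genes tested, 13 members rose and 46 fell, while 205 did not pass. The 59 called are 22.3% of the members, beside 45.4% of all genes tested. Split by direction, 4.92% of members rose, beside 23% of all genes, and 17.4% fell, beside 22.4% of all genes. The Nop16 siRNA and control siRNA libraries did not overlap in CPM for 85 members (23 higher and 62 lower), which is 32.2% of members, beside 52.6% of all genes. Of protein-coding genes alone, 49.9% of the 11579 tested were called.

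The changes were small as well as few. The median log2 fold change (Nop16 siRNA minus control siRNA) of the 264 members was -0.04, beside -0.00 for all genes tested, and the median size of the change without its sign was 0.15, beside 0.21. No member changed 2-fold, whereas 450 of all genes tested (3.15%) did. A change of more than 1.5-fold was seen in 0.758% of the members, beside 13.1% of all genes. All genes tested include genes below the level that defined the members. Among protein-coding genes with a 6-library mean of at least 5 CPM, 1.39% changed more than 2-fold and 7.8% more than 1.5-fold. No member at that level changed by more than 1.5-fold. Over all 264 members, values ran from -0.67 for Zfp473 to 0.63 for Zfp30, on the log2 scale.

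**Figure D1:**
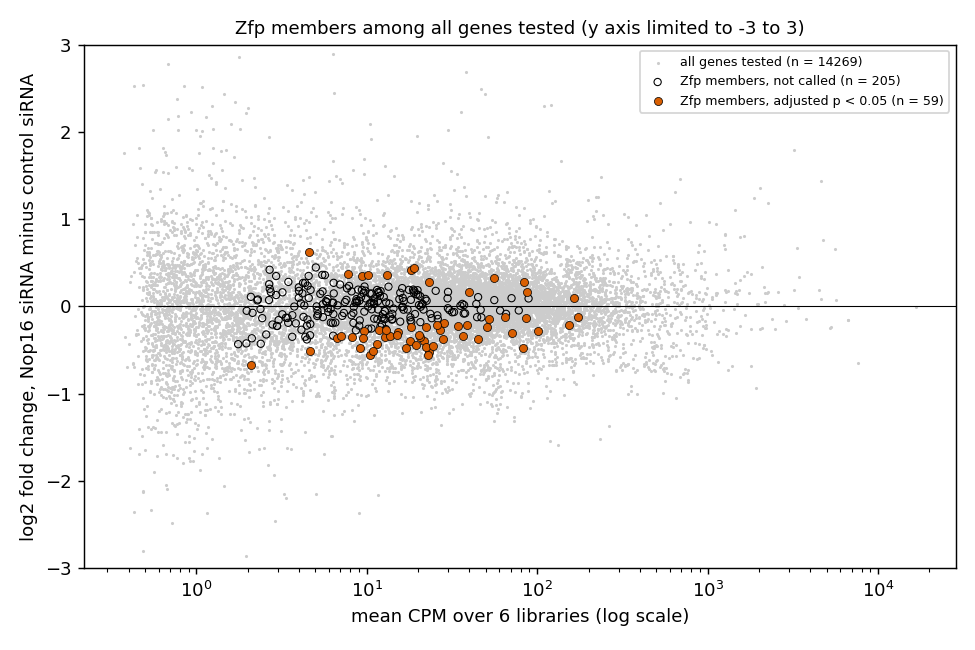
Log2 fold change (Nop16 siRNA minus control siRNA) against the mean CPM of 6 libraries on a log scale, for 14269 genes tested in grey, 205 members that did not pass in open circles and 59 called members in orange. Members lie between -0.67 and 0.63, inside the wider cloud of all genes.

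The summed level of all members moved down by a few per cent. It was 4632, 4729 and 4674 CPM in the Nop16 siRNA libraries, against 4980, 4949 and 4936 CPM in the control siRNA libraries. Each Nop16 siRNA library was below each control library, and the ratio of the means was 0.944. Such CPM are scaled to the total counts, and the TMM factors that rescale libraries for the test were 0.989 to 0.994 for Nop16 siRNA and 1.01 for each control library.

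Zfp transcripts are mostly scarce, and a scarce transcript gives a wider error, so the share called was set beside genes of like level. The median member had a mean of 11.03 CPM over the 6 libraries, against 23.1 CPM for all genes tested. The bands use the mean of all 6 libraries, while members also had to reach 2 CPM in the controls. Genes that rose from below 2 CPM in the controls are thus left out of the members but not of all genes. How far this affects the lowest band was not tested. From 2 to 5 CPM, 5.66% of 53 members were called, beside 24.9% of all genes in that band. From 5 to 10 CPM the shares were 12.7% of 63 members and 33.1% of all genes.

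Higher up, the gap narrowed. Between 10 and 20 CPM, 21.8% of 78 members and 38.9% of all genes were called, and between 20 and 50 CPM 37.5% of 48 members and 52.4% of all genes. The 19 members at 50 to 200 CPM were called at 68.4%, beside 65.5% of all genes there. In both of these upper bands a larger share of members than of all genes fell, and a smaller share rose. Between 20 and 50 CPM, 4.17% of members rose and 33.3% fell, beside 26.7% and 25.8% of all genes, and between 50 and 200 CPM 21.1% rose and 47.4% fell, beside 35.4% and 30.1%. In each of the 5 bands the median size of the log2 change was smaller in members, from 0.19 against 0.29 in the lowest band to 0.13 against 0.16 in the highest. No test was made of these differences between members and other genes.

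**Figure D2:**
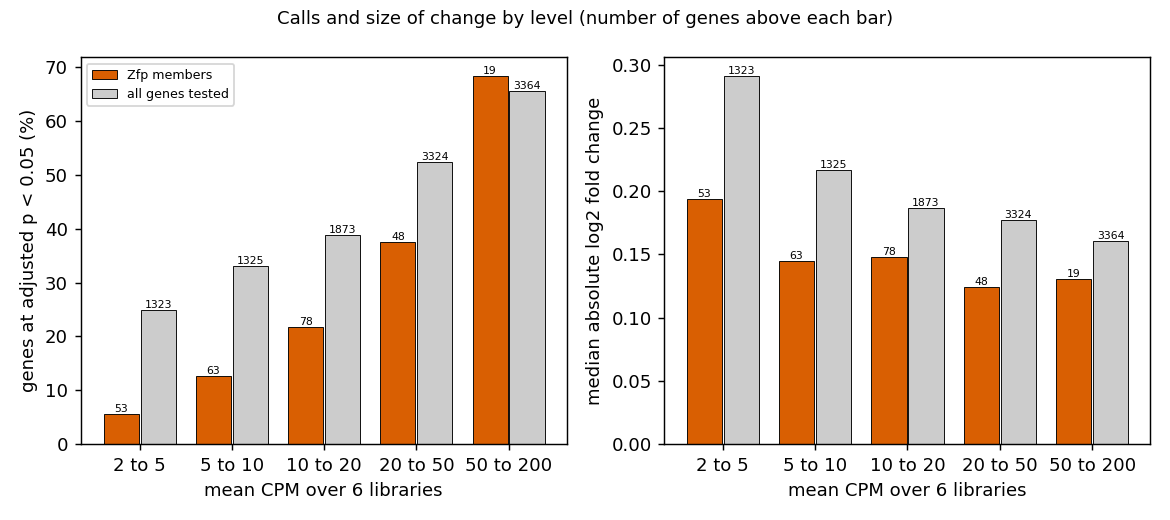
Left, the share of genes at an edgeR adjusted p below 0.05 in 5 bands of mean CPM; right, the median size of the log2 fold change in the same bands, for Zfp members in orange and all genes tested in grey, with the number of genes above each bar. The share called in members goes from 5.66% in the lowest band to 68.4% in the highest.

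The members nearest to the level that defined the set show how thin the counts are there. Just inside were Zfp455, Zfp449 and Zfp791, whose control means were 2.03, 2.03 and 2.04 CPM and whose log2 fold changes were -0.43, -0.05 and 0.11. Just outside were Zfp667, Zfp458 and Zfp418, at control means of 1.99, 1.97 and 1.92 CPM and log2 fold changes of -0.08, 0.50 and 0.05.

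The members that fell furthest, at a mean of at least 5 CPM and with groups that did not overlap, were Zfp362, Zfp760, Zfp41, Zfp974, Zfp652, Zfp945, Zfp930, Zfp395, Zfp609 and Zfp967. Zfp652, whose human counterpart is a DNA-binding repressor, had 67.0, 67.6 and 68.7 CPM in the Nop16 siRNA libraries, against 94.6, 97.9 and 95.9 CPM in the control siRNA libraries. Libraries of a group lay within a few CPM of each other and the groups far apart, with a log2 fold change of -0.48 ± 0.05 (SE, n = 3 each, edgeR adjusted p = 6.68e-14). Of its exon sequence, 11.8% overlaps another gene model on the same strand, so a fragment there could be counted for both.

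Zfp362, on chromosome 4 and related to the rotund gene of Drosophila and lin-29 of Caenorhabditis elegans, had 15.9, 21.1 and 17.9 CPM in the Nop16 siRNA libraries, against 27.7, 27.1 and 27.4 CPM in the control siRNA libraries. The knockdown libraries were the more scattered, and all were below the controls. Its log2 fold change was -0.56 ± 0.09 (SE, n = 3 each, edgeR adjusted p = 1.42e-07), the largest fall of any member above 5 CPM. Zfp41, on chromosome 15 with 4 fingers by the pattern used here, had 20.4, 19.0 and 17.4 CPM in the Nop16 siRNA libraries, against 27.6, 27.6 and 27.3 CPM in the control siRNA libraries. Its groups did not overlap and its log2 fold change was -0.52 ± 0.08 (edgeR adjusted p = 2.31e-07).

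Zfp395, on chromosome 14, had 18.7, 18.2 and 18.4 CPM in the Nop16 siRNA libraries, against 25.7, 26.3 and 25.4 CPM in the control siRNA libraries, a change of -0.46 ± 0.08 (SE, n = 3 each, edgeR adjusted p = 2.59e-06). Its 2 groups were both tight and well apart. Zfp609, known in the mouse as a partner of the cohesin loader Nipbl, averaged 20.4 ± 2.26 CPM in Nop16 siRNA cells and 28.4 ± 1.88 CPM in control siRNA cells (SD, n = 3 each), a log2 fold change of -0.45.

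The other members of this group have 12 to 21 fingers, apart from Zfp967, which is described with its neighbours on chromosome 2. Zfp760 averaged 8.42 ± 1.33 CPM in Nop16 siRNA cells and 12.6 ± 0.629 CPM in control siRNA cells (SD, n = 3 each), a log2 fold change of -0.55. Zfp974, with 21 fingers, averaged 8.94 ± 1.023 CPM in Nop16 siRNA cells and 12.9 ± 1.05 CPM in control siRNA cells, a change of -0.51. For Zfp945, with 18 fingers, the means were 13.96 ± 0.323 CPM under Nop16 siRNA and 19.8 ± 1.21 CPM under control siRNA. Zfp930, with 12 fingers, was the least precise of these, at -0.48 ± 0.13 (SE, n = 3 each, edgeR adjusted p = 0.00117).

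**Figure D3:**
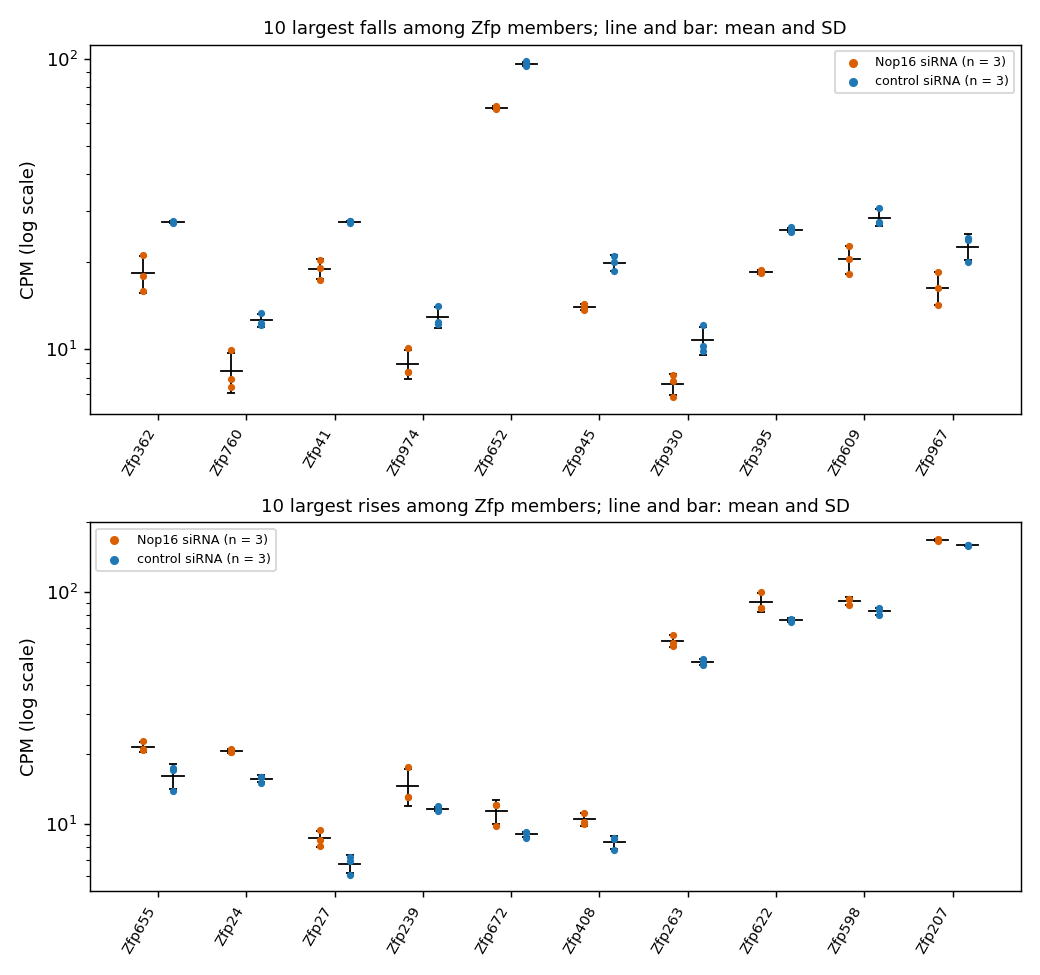
CPM on a log scale of each library for the 10 largest falls (top) and the 10 largest rises (bottom) among members, with Nop16 siRNA in orange left of control siRNA in blue and lines for the mean and SD (n = 3 each). The groups do not overlap for any of these genes, as the rule that chose them asked.

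The rises were fewer. Only 10 members passed the same rule, so all of them are given: Zfp655, Zfp24, Zfp27, Zfp239, Zfp672, Zfp408, Zfp263, Zfp622, Zfp598 and Zfp207. Zfp655 had 22.8, 20.9 and 21.1 CPM in the Nop16 siRNA libraries, against 17.5, 13.9 and 17.2 CPM in the control siRNA libraries, a log2 fold change of 0.44 ± 0.09 (SE, n = 3 each, edgeR adjusted p = 4.72e-05). Zfp24, a SCAN protein needed for myelination in the mouse, had 20.5, 21.05 and 20.4 CPM under Nop16 siRNA, against 15.96, 15.1 and 16.03 CPM under control siRNA. Its libraries were tight in both groups, and the change was 0.42 ± 0.09 (edgeR adjusted p = 4.58e-05).

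Zfp263, also with a SCAN-like stretch, had 58.6, 65.5 and 60.6 CPM in the Nop16 siRNA libraries, against 49.4, 48.7 and 51.6 CPM in the control siRNA libraries, a log2 fold change of 0.33 ± 0.05 (SE, n = 3 each, edgeR adjusted p = 7.46e-07). The lowest knockdown library stood above the highest control library. Zfp408, whose human counterpart is altered in an inherited disease of retinal vessels, averaged 10.5 ± 0.644 CPM in Nop16 siRNA cells and 8.37 ± 0.556 CPM in control siRNA cells (SD, n = 3 each), a change of 0.35.

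Some of these calls were lost when 1 library was left out. Zfp239 had 13.1, 13.1 and 17.7 CPM under Nop16 siRNA, against 11.6, 11.4 and 11.9 CPM under control siRNA, and without Nop16 siRNA replicate 3 its log2 change was 0.19 in place of 0.36 (edgeR adjusted p = 0.201). The others kept most of their size: Zfp672, at 0.36, was at 0.31 without Nop16 siRNA replicate 2 (edgeR adjusted p = 0.0511) and at 0.30 without replicate 3 (0.0667). Zfp408 was at 0.30 without control siRNA replicate 3 (edgeR adjusted p = 0.0713) and at 0.29 without Nop16 siRNA replicate 3 (0.0873). Zfp27, a KRAB protein with 21 fingers that changed by 0.38, was at 0.31 without control siRNA replicate 3 (edgeR adjusted p = 0.0887) and at 0.32 without Nop16 siRNA replicate 1 (0.0801). Zfp207 was at 0.10 with and without Nop16 siRNA replicate 3, and its edgeR adjusted p without it was 0.0507.

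Of the 3 members with roles at the ribosome, 2 rose, beside 23% of all genes tested and 35.4% of those at 50 to 200 CPM, where both lie. Zfp622, whose yeast relative Rei1 acts late in the maturation of the large ribosomal subunit, had 100.2, 85.3 and 85.9 CPM in the Nop16 siRNA libraries, against 76.1, 74.1 and 76.9 CPM in the control siRNA libraries. The first knockdown library was the highest and all 3 exceeded the controls, with a log2 fold change of 0.28 ± 0.05 (SE, n = 3 each, edgeR adjusted p = 5.17e-06). Zfp598, whose human counterpart is a ubiquitin ligase that marks collided ribosomes, averaged 91.8 ± 3.39 CPM in Nop16 siRNA cells and 82.9 ± 3.02 CPM in control siRNA cells (SD, n = 3 each), a change of 0.17 ± 0.05 (SE, edgeR adjusted p = 0.0013). Zfp593, whose yeast relative Bud20 helps to export the large subunit, had 11.4 ± 0.291 CPM under Nop16 siRNA and 11.9 ± 0.421 CPM under control siRNA, with overlapping libraries and an adjusted p of 0.825.

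Of 7 members listed for RNA processing, 1 rose and 2 fell, so 42.9% were called, beside 45.4% of all genes tested. Their median log2 change was -0.04, beside -0.00 for all genes tested. Zfp207 (BuGZ), which is known to stabilise the checkpoint protein Bub3 at the spindle, had 169.3, 166.7 and 167.9 CPM under Nop16 siRNA, against 159.0, 159.1 and 159.5 CPM under control siRNA. The step between groups was only 0.10 on the log2 scale, yet no library crossed it (edgeR adjusted p = 0.015), and the call was lost without Nop16 siRNA replicate 3 (0.0507) and with library-size scaling (adjusted p = 0.0654). Zfp473, whose human counterpart belongs to the U7 snRNP that trims histone mRNA, had 1.92, 1.32 and 1.56 CPM in the Nop16 siRNA libraries, against 2.29, 2.78 and 2.63 CPM in the control siRNA libraries.

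That is the largest fall of any member, at -0.67 ± 0.26 (SE, n = 3 each, edgeR adjusted p = 0.0309), and the SE is wide at so low a level. For Zfp473, the edgeR adjusted p was 0.0949 without control siRNA replicate 2, 0.067 without the third control library, and 0.135 and 0.0768 without Nop16 siRNA replicates 2 and 3. Zfp871 averaged 80.9 ± 3.61 CPM in Nop16 siRNA cells and 89.96 ± 2.71 CPM in control siRNA cells (SD, n = 3 each), a log2 change of -0.13 (edgeR adjusted p = 0.0149). Its call was lost when control siRNA replicate 1 was left out (0.0948), and likewise for Nop16 siRNA replicate 1 (0.079) and replicate 3 (0.0517).

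Of 12 members listed as activators or architectural factors, 1 rose (Zfp24) and 5 fell, with a median log2 change of -0.11. The list had 8.33% rises and 41.7% falls, beside 23% and 22.4% of all genes tested. Zfp652, described above, is on that list although its human counterpart represses. Zfp281, known for its part in the state of mouse embryonic stem cells, had 17.6, 17.3 and 20.7 CPM in the Nop16 siRNA libraries, against 25.8, 23.5 and 25.3 CPM in the control siRNA libraries. The highest knockdown library stayed below the lowest control library, with a log2 fold change of -0.40 ± 0.08 (SE, n = 3 each, edgeR adjusted p = 8.12e-05). Zfp131 had 24.3 ± 2.24 CPM under Nop16 siRNA and 29.8 ± 1.78 CPM under control siRNA (SD, n = 3 each), a change of -0.27 (edgeR adjusted p = 0.0033).

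Smaller steps were seen in Zfp367 and Zfp335. Zfp367 changed by -0.21, and without Nop16 siRNA replicate 3 its edgeR adjusted p was 0.111. Zfp335, a subunit of histone H3 lysine 4 methyltransferase complexes, changed by -0.13 (edgeR adjusted p = 0.0361), with adjusted p of 0.116 without control siRNA replicate 2, 0.155 without the third control library, and 0.101 and 0.0921 without Nop16 siRNA replicates 2 and 3. Zfp143, a promoter-bound factor of chromatin contacts, had 15.96, 12.9 and 15.1 CPM under Nop16 siRNA, against 18.1, 16.8 and 15.3 CPM under control siRNA, which overlap (edgeR adjusted p = 0.138). Zfp148 and Zfp384 overlapped too, at -0.08 and 0.07.

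Of 13 members listed as partners of corepressors and chromatin regulators, 4 fell and none rose, and their median log2 change was -0.04. The share that fell was 30.8%, beside 22.4% of all genes tested. Besides Zfp609 these were Zfp217, Zfp451 and Zfp91. Zfp217, whose human counterpart works with CoREST and LSD1 and is amplified in breast cancer, had 47.2, 44.4 and 47.4 CPM in the Nop16 siRNA libraries, against 58.9, 54.6 and 52.6 CPM in the control siRNA libraries. The groups stayed apart, at -0.23 ± 0.06 (SE, n = 3 each, edgeR adjusted p = 0.000457).

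Zfp451, known in human as a SUMO ligase, changed by -0.15 (edgeR adjusted p = 0.0296), and its call was lost without control siRNA replicate 1 (0.175) or 2 (0.115) and without Nop16 siRNA replicate 1 (0.0884) or 3 (0.0752). It was lost with DESeq2 (0.0745) and after removal of a gene length trend (0.133) as well. Zfp91, a ubiquitin ligase of the non-canonical NF-kB pathway in human cells, averaged 164.6 ± 5.27 CPM in Nop16 siRNA cells and 181.7 ± 5.24 CPM in control siRNA cells (SD, n = 3 each). Its log2 change was -0.12 ± 0.04 (SE, edgeR adjusted p = 0.00413), and 25.8% of its exon sequence overlaps another gene model on the same strand.

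The 5 members with the highest CPM were Zfp91, Zfp207, Zfp106, Zfp710 and Zfp445. Per kilobase of gene model they held 17.9, 25.2, 13.4, 13.1 and 12.3 CPM in Nop16 siRNA cells, against 19.8, 23.9, 15.8, 16.2 and 11.7 CPM in control siRNA cells, in that order. Zfp106, an RNA-binding protein that the mouse needs for motor neurons and muscle, had 138.3, 142.1 and 140.3 CPM under Nop16 siRNA, against 171.1, 158.7 and 165.2 CPM under control siRNA. All knockdown libraries were below all controls, at -0.21 ± 0.04 (SE, n = 3 each, edgeR adjusted p = 2.08e-06). Zfp710 had 96.0, 86.7 and 90.2 CPM under Nop16 siRNA, against 117.9, 107.9 and 110.2 CPM under control siRNA, a log2 change of -0.28 (edgeR adjusted p = 2.64e-07). Zfp445, which protects imprinted marks in mouse and human, had overlapping groups and a change of 0.09 (edgeR adjusted p = 0.0933), and it passed without Nop16 siRNA replicate 1 (0.0253).

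A KRAB-like stretch was found in 143 members and none in 121. The pattern misses degenerate domains, so the 121 can include KRAB proteins. An example is Zfp445, which is on the list of KRAB proteins given below. Of the KRAB-like members, 3 rose and 19 fell, so 15.4% were called. Of the others, 10 rose and 27 fell, so 30.6% were called. Both shares lay below the 45.4% of all genes tested. Both kinds differ in level, with a median mean of 8.14 CPM in KRAB-like members and 19.9 CPM in the rest, and their median log2 changes were close, at -0.03 and -0.04. Between 2 and 5 CPM, 1 of 37 KRAB-like members rose and 1 fell, and of 16 others none rose and 1 fell, beside 12.02% higher and 12.8% lower among all genes of that band. Between 5 and 10 CPM, 1 of 50 KRAB-like members rose and 4 fell, and 1 of 13 others rose and 2 fell, beside 15.2% and 17.9% of all genes. Between 10 and 20 CPM none of 47 KRAB-like members rose and 10 fell, which is 21.3% lower, and among 31 others 4 rose and 3 fell. Of all genes in that band 18.3% rose and 20.6% fell, so the share of KRAB-like falls was near that of all genes. Between 20 and 50 CPM the 6 KRAB-like members had 1 rise and 3 falls and the 42 others 1 rise and 13 falls. Between 50 and 200 CPM the 2 KRAB-like members had no rise and 1 fall, and the 17 others had 4 rises and 8 falls. The shares of all genes in these upper bands are those given above. The difference between the kinds was not tested.

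By the number of fingers, 14 of the 42 members with 0 to 4 fingers were called, 20 of 81 with 5 to 9, 18 of 87 with 10 to 14, and 7 of 54 with 15 or more. These shares were 33.3%, 24.7%, 20.7% and 12.96%, each below the 45.4% of all genes tested. The median mean CPM was 21.1, 12.6, 9.37 and 8.97 in these classes, so level and finger number move together. Across the 264 members, Spearman's rho between the number of fingers and the log2 fold change was 0.06, a description over genes that share the same 6 libraries. Of 12 members with a SCAN-like stretch, 2 rose (Zfp24 and Zfp263) and 1 fell, which is 16.7% and 8.33%, beside 23% and 22.4% of all genes tested.

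Of the 11 members on the retroelement list of KRAB proteins, 2 were called higher and 1 lower. Log2 values above zero were found in 10 of the 11, beside 7130 of the 14269 genes tested. The list was chosen with earlier results of these data known, so these counts are a description. Its members include Zfp445, in which the pattern found no KRAB-like stretch. The 27.3% called stands beside 45.4% of all genes tested. Their median log2 change was 0.19, beside -0.04 for all members. Zfp30 had 4.9995, 4.63 and 6.98 CPM in the Nop16 siRNA libraries, against 3.44, 4.03 and 3.49 CPM in the control siRNA libraries, a change of 0.63 ± 0.18 (SE, n = 3 each, edgeR adjusted p = 0.00281). The third knockdown library was the highest, and without it the change was 0.41 (edgeR adjusted p = 0.104). The second rise was Zfp27, given above, whose call was lost without control siRNA replicate 3 (0.0887) or Nop16 siRNA replicate 1 (0.0801).

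Zfp809, which in mouse stem cells brings Trim28 to murine leukaemia virus DNA, had 7.24, 9.55 and 7.62 CPM under Nop16 siRNA, against 6.88, 7.11 and 7.53 CPM under control siRNA. The groups overlap, and the change of 0.21 did not pass (edgeR adjusted p = 0.218). Zfp568, a repressor of a placental Igf2 transcript in the mouse, had 20.1, 19.8 and 19.5 CPM under Nop16 siRNA, against 16.9, 16.7 and 19.2 CPM under control siRNA. It missed the threshold at 0.19 (edgeR adjusted p = 0.0631) and passed without control siRNA replicate 3 (0.0258). Zfp961 averaged 8.22 ± 0.735 CPM in Nop16 siRNA cells and 10.7 ± 0.808 CPM in control siRNA cells (SD, n = 3 each), a change of -0.36 (edgeR adjusted p = 0.0123), lost without control siRNA replicate 1 (0.0684) or Nop16 siRNA replicate 2 (0.0709).

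The corepressor through which KRAB proteins act was measured with them. Of 38 tested genes of that machinery, 3 rose and 20 fell. That is 7.89% higher and 52.6% lower, beside 23% and 22.4% of all genes tested, and their median log2 change was -0.12, beside -0.00. These genes are more abundant, with a median mean of 63.3 CPM, against 23.1 CPM for all genes tested. At 50 to 200 CPM, 35.4% of all genes rose and 30.1% fell. Among the 20 falls is 1 Zfp member, Zfp282, which is thus counted in both sets. Trim28 had 185.4, 187.1 and 172.7 CPM in the Nop16 siRNA libraries, against 211.0, 214.3 and 215.0 CPM in the control siRNA libraries, a change of -0.21 ± 0.03 (SE, n = 3 each, edgeR adjusted p = 6.6e-07). Setdb1 averaged 71.4 ± 5.47 CPM in Nop16 siRNA cells and 75.4 ± 0.524 CPM in control siRNA cells, did not pass (edgeR adjusted p = 0.406), with a log2 change of -0.05 that became 0.0055 without Nop16 siRNA replicate 1.

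The changed genes with the largest change in that list were Dnmt1, Cbx5, Resf1, Uhrf1, Suv39h2 and Cbx3. Dnmt1, the maintenance DNA methyltransferase, averaged 202.9 ± 3.23 CPM in Nop16 siRNA cells and 318.4 ± 6.35 CPM in control siRNA cells (SD, n = 3 each), a log2 change of -0.63. Its guide Uhrf1 changed by -0.52, and Cbx5 and Cbx3, which encode HP1 proteins, by -0.62 and -0.42. Suv39h2, a histone H3 lysine 9 methyltransferase, changed by -0.44 (edgeR adjusted p = 0.0112), lost without control siRNA replicate 1 (0.077) or Nop16 siRNA replicate 3 (0.116). Resf1, a retroelement silencing factor, rose to 102.2 ± 2.19 CPM in Nop16 siRNA cells, against 72.1 ± 1.98 CPM in control siRNA cells, a change of 0.53. The 3 rises of the list became 1 when control siRNA replicate 1, or Nop16 siRNA replicate 3, was left out.

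Zfp genes lie in clusters that arose by tandem duplication. With steps of at most 500 kb between neighbours and at least 3 members, 145 members fell into 24 runs, and 14 of the runs held a called member. The run on chromosome 17 from Zfp160 to Zfp213 held 20 members, of which 5 fell and none rose. That share of falls was near the 22.4% of all genes tested that fell. The 5 falls lay between Zfp760 and Zfp945, among neighbours that did not pass.

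On chromosome 6, 4 of the 8 members from Zfp398 to Zfp775 fell, beside 22.4% of all genes tested, and 7 of 8 were below zero. On chromosome 7, the run from Zfp84 to Zfp146 held 14 members, of which Zfp30 and Zfp27 rose, none fell and 10 were above zero. The 2 rises of 14 are a smaller share than the 23% of all genes tested that rose, and both calls were lost in some fits that left out 1 library (for example, edgeR adjusted p = 0.104 for Zfp30 without Nop16 siRNA replicate 3, and 0.0887 for Zfp27 without control siRNA replicate 3). The 11 members of the chromosome 13 run from Zfp759 to Zfp85 had no call, with log2 values from -0.43 to 0.45.

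**Figure D4:**
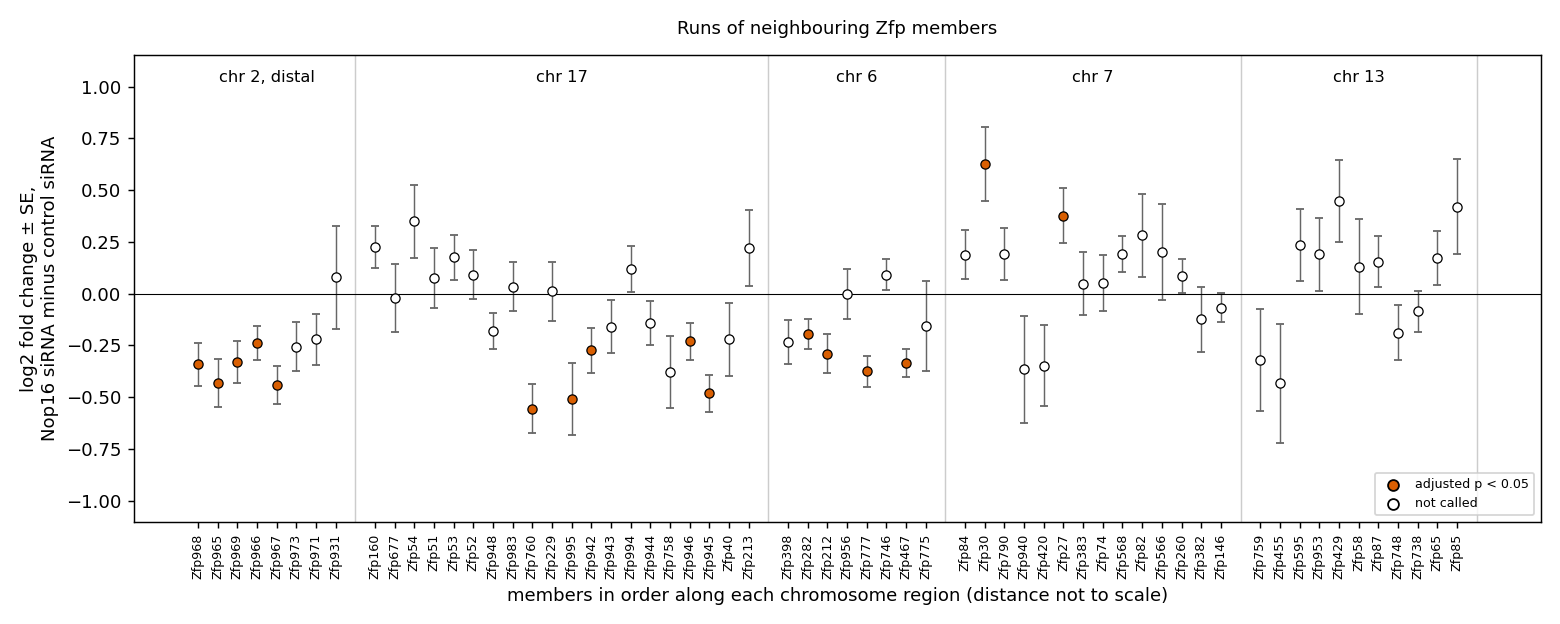
Log2 fold change (Nop16 siRNA minus control siRNA) with its SE for members of 5 chromosome regions in their order along the chromosome, distance not to scale; orange circles passed at an edgeR adjusted p below 0.05. In the distal chromosome 2 region 5 of 8 passed, all lower, and in the chromosome 13 run none of 11 did.

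The distal end of chromosome 2 held the densest group of falls. Its bounds, from the start of Zfp968 to the end of Zfp931 (chr2:175372436-178078476, GRCm38), were chosen after the values were seen, so its counts are a description. All 8 members there have a KRAB-like stretch, 5 fell and none rose, and their median log2 change was -0.29. The 62.5% that fell stands beside 22.4% of all genes tested. Apart from them, chromosome 2 held 9 members, of which 2 rose (22.2%) and 4 fell (44.4%), beside 23% and 22.4% of all genes tested. The share called was thus 66.7% in these 9 members and 62.5% in the 8 of the distal region. Copies complicate the region: 6 of its 8 members have another gene that matches at least 50% of their transcript at 95% identity or more. Since a multi-mapped fragment can be counted at more than 1 place, these genes can share fragments and cannot be taken as independent. How many fragments they share was not measured.

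Part of the likeness reaches the promoters, where most members of the region are near copies of each other. Zfp973, which did not pass, shares this likeness. Whether the promoter sequence has a part in the changes was not tested. The 230-base stretches common to the RefSeq promoter windows (GRCm38.p6, 250 bases before to 50 after the start) were identical in Zfp966, Zfp967 and Zfp968. They differed from Zfp967 at 1 base in Zfp965 and Zfp973, at 6 in Zfp971 and at 13 in Zfp931. Zfp969 was not compared. The stretches are Zfp967 at chr2:176520798-176521027, plus strand, Zfp965 at chr2:175469805-175470034, plus strand, Zfp971 at chr2:178023064-178023293, plus strand, and Zfp931 at chr2:178078446-178078675, minus strand. They are written 5′ to 3′ on the strand of the gene, and capitals mark bases that differ from Zfp967.
Zfp967: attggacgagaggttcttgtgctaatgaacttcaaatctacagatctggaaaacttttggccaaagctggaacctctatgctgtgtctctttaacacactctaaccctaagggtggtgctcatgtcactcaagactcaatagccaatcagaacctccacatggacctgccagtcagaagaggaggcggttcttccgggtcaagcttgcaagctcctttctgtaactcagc
Zfp965: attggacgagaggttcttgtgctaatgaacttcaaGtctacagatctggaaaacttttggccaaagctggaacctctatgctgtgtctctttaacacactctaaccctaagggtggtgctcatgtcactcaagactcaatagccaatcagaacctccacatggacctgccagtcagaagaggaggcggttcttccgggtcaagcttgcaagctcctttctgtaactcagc
Zfp971: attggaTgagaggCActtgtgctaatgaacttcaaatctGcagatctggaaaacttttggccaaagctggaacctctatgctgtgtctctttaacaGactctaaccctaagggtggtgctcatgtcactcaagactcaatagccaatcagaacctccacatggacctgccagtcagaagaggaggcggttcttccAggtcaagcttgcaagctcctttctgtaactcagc
Zfp931: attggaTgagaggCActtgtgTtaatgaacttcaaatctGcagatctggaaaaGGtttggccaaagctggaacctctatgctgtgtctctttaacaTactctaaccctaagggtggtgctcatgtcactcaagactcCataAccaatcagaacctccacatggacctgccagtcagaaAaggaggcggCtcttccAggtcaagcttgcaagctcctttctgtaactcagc
All 7 stretches hold the letters CCAAT on either strand, a motif chosen after the sequences were seen. Since these stretches are near copies, the shared letters are not separate observations. CCAAT was found in 48.5% of 270 RefSeq promoters of 221 members, beside 37.4% of all 32851 RefSeq promoters. The other motif looked for, CTCGCGAG, was found in 0.741% of the member promoters, beside 0.919% of all. Neither difference was tested.

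Zfp967, first in that list, had 14.2, 18.5 and 16.3 CPM in the Nop16 siRNA libraries, against 19.9, 23.7 and 24.1 CPM in the control siRNA libraries, a log2 fold change of -0.44 ± 0.09 (SE, n = 3 each, edgeR adjusted p = 5.9e-05). Zfp965 had 7.63, 11.7 and 9.82 CPM under Nop16 siRNA, against 13.4, 12.7 and 14.01 CPM under control siRNA, a change of -0.43 ± 0.12 (edgeR adjusted p = 0.00164). In both genes every knockdown library lay below every control library, with Nop16 siRNA replicate 1 the lowest.

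Zfp968 had 10.1, 13.6 and 12.4 CPM under Nop16 siRNA, against 14.8, 16.3 and 15.5 CPM under control siRNA, a log2 change of -0.34 (edgeR adjusted p = 0.00507), lost without Nop16 siRNA replicate 1 (0.081). Zfp969 had 13.1, 14.5 and 12.2 CPM under Nop16 siRNA, against 14.1, 18.0 and 18.6 CPM under control siRNA. Its groups overlap by 1 library, at -0.33 (edgeR adjusted p = 0.00554, and 0.0599 without control siRNA replicate 3). Zfp966 changed least of the called members there, by -0.24 (edgeR adjusted p = 0.0145), lost without control siRNA replicate 2 (0.0741) or Nop16 siRNA replicate 3 (0.104).

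The remaining members of the region did not pass. Zfp973 had 8.01, 9.32 and 10.2 CPM under Nop16 siRNA, against 11.3, 10.7 and 11.7 CPM under control siRNA, at -0.26 (edgeR adjusted p = 0.0699), and passed without Nop16 siRNA replicate 3 (0.0324). Zfp971 was at -0.22 (edgeR adjusted p = 0.144) although its groups did not overlap. Zfp931, which is near the level that defined the set, averaged 2.34 ± 0.384 CPM in Nop16 siRNA cells and 2.26 ± 0.496 CPM in control siRNA cells (SD, n = 3 each). Its change of 0.08 (edgeR adjusted p = 0.825) was -0.09 without control siRNA replicate 1 and -0.04 without Nop16 siRNA replicate 3.

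A fragment that matches several of these members can be counted for each of them, so it can enter a sum over the region more than once. The 8 members together had 83.2, 100.5 and 90.05 CPM in the Nop16 siRNA libraries, against 107.6, 119.7 and 120.1 CPM in the control siRNA libraries, a ratio of means of 0.788. The groups did not overlap. The 13 other genes with fingers tested between the same bounds summed to 118.4, 119.8 and 107.4 CPM under Nop16 siRNA, against 144.1, 131.6 and 143.1 CPM under control siRNA. Of these, 11 were below zero and 2 fell (15.4%), beside 22.4% of all genes tested. Among all 16 other protein-coding genes tested there, with or without fingers, 4 fell (25%) and none rose. The largest of those falls was in Gm14327, at -2.09 and a mean of only 0.67 CPM.

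**Figure D5:**
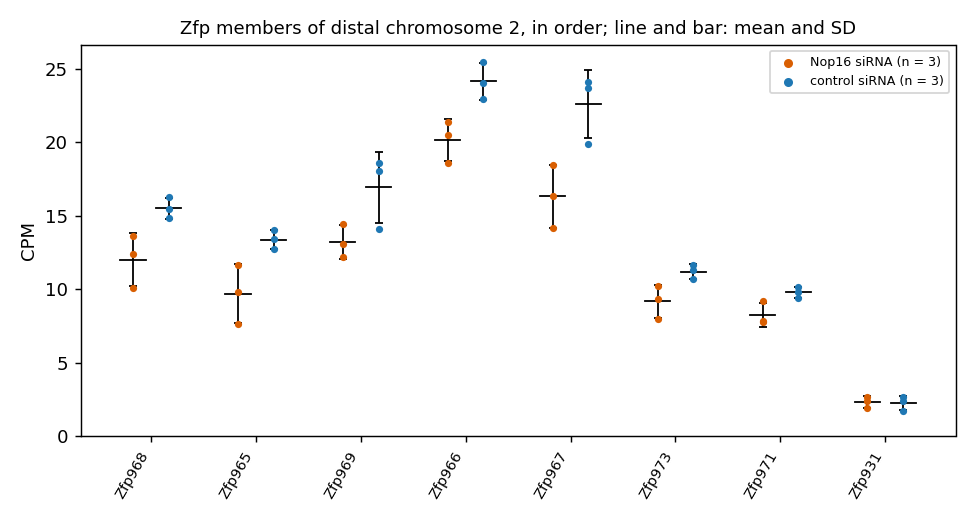
CPM of each library for the 8 members of distal chromosome 2 in their order along the chromosome, with Nop16 siRNA in orange left of control siRNA in blue and lines for the mean and SD (n = 3 each). Zfp967 shows 14.2 to 18.5 CPM under Nop16 siRNA, against 19.9 to 24.1 CPM under control siRNA, while Zfp931 overlaps.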

How the data were processed

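RNA-seq counts of 6 RAW264.7 libraries were used. The authors deposited unnormalized fragment counts for each gene. These come from featureCounts 2.0.1 run on read pairs against GRCm38 models of Ensembl release 101, with strand setting 2, a minimum overlap of 10 bases, and multi-mapped and multi-overlapping fragments counted, per the file headers. The submitters' processing notes list HISAT2 2.2.1 and Trim Galore, this one without a version. A fragment can therefore be counted for several genes, and near-identical or overlapping Zfp genes are uncertain. Symbols were matched for 55141 of 55401 identifiers, and biotypes and transcripts came from GENCODE mouse release 21.

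The members and lists were chosen with earlier results of these data known. One edgeR 4.0.16 quasi-likelihood fit (robust, TMM, filterByExpr, in R 4.3.3) took all genes, with group as its only term. The threshold was a Benjamini-Hochberg adjusted p of 0.05 over 14269 genes, and SE is the log2 fold change over the root of F. CPM use total counts. A count of 3 is 0.13 to 0.192 CPM, and such floors cover counting error only. Replicates differed by more than sampling noise (chi-square per degree of freedom 2.51 to 3.14 within groups). On simulated counts for 14269 genes, with 50 genes changed at each size, the test recovered 46% at 1.2-fold, 86% at 1.5-fold, 96% at 2-fold and 100% at 3-fold. Of its 169 calls, 5 were false. The simulation changed far fewer genes than the 6482 called here, which alters the adjusted p. Its changed genes came from all genes of at least 2 CPM, not from the levels of the members. These shares therefore do not give the recovery or the false calls of the real comparison.

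Fingers (a pair of cysteines 2 to 4 residues apart, 12 residues, a pair of histidines 3 to 5 apart), KRAB-like and SCAN-like stretches were found by pattern in the longest coding transcript. The patterns miss degenerate domains, and the KRAB-like pattern was widened after sequences, not values, were seen. Copies were found with BLAST 2.17.0 (95% identity over 50%), overlaps with bedtools 2.31.1 (10% of exons, same strand). The named genes are Nop16, the 10 largest rises and falls among called members whose mean reaches 5 CPM and whose groups do not overlap, the 5 most abundant members, members of the role lists and of runs, the 3 members on each side of the level rule, and Trim28, Setdb1 and 6 changed genes of the corepressor list. Alternatives were library-size and RLE scaling, DESeq2 1.42.0, limma-voom 3.58.1, filters, a replicate block, length trend removal, a minimum fold of 1.2, other level rules and leaving out each library.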

Additional observations from a re-analysis of the deposited data

How the results depend on the processing

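The counts of 13 members higher and 46 lower stayed within 1.5 times under every setting tried except a minimum fold of 1.2, where 2 rose and 9 fell. They were 12 and 36 with DESeq2 and 15 and 43 with limma-voom, and leaving out each library in turn gave 9 to 19 higher and 33 to 44 lower. Of the 59 called members, 32 (6 higher and 26 lower) were called in all 14 settings compared, which exclude the minimum fold. The median member change of -0.04 was -0.058 with library-size scaling. In the corepressor list, 1 gene rose in place of 3 with library-size scaling, DESeq2, length trend removal and the minimum fold, under which 6 fell in place of 20, and leaving out each library gave 1 to 2 higher and 17 to 21 lower. The cause was not tested. Members without a near copy or overlap gave 13 higher and 39 lower, and members without distal chromosome 2 gave 13 and 41, both settings chosen after seeing the data. Same-numbered libraries did not deviate together (correlations of 0.017, -0.020 and -0.022), so the replicate numbers were not taken to pair them, and with a replicate block 14 members rose and 46 fell, 58 of these 60 among the 59. Leaving out each library in turn gave Setdb1 log2 values of -0.097 to 0.0055 and Zfp931 values of -0.090 to 0.22, so both changed sign, and neither passed in any of these fits. Over 55 of the named genes, which leave out Nop16, the 6 genes beside the level rule and list members given without values, 748 of 822 comparisons with an alternative kept the direction and the side of the threshold, 66 lost and 5 gained a call, and 3 changed sign. Depth limits the scarce members most: below 5 CPM the median SE of a member's log2 change was 0.20.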

Other observations

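Zinc finger families outside the Zfp symbols were called at 25% to 72.7%, beside 22.3% of the Zfp members and 45.4% of all genes tested. Of 34 Zbtb genes tested, which join a BTB domain to their fingers, 3 rose and 7 fell in Nop16 siRNA cells, which is 29.4% called. Of 11 Klf genes, short factors with few fingers, 3 rose and 5 fell (72.7% called), at a higher median level of 31.2 CPM, beside 11.03 CPM for the Zfp members. The SCAN families had few members, with 1 higher and 2 lower of 10 Zkscan genes (30% called) and 2 higher and none lower of 8 Zscan genes (25% called). The median size of the log2 change was 0.15 for Zbtb, 0.28 for Klf, 0.25 for Zkscan and 0.11 for Zscan genes, beside 0.15 for the Zfp members, so it lay on both sides of theirs. The median level was 16.7 CPM for Zbtb, 7.71 CPM for Zkscan and 8.79 CPM for Zscan genes. These families were picked after results were seen, and their differences from the Zfp members were not tested.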
